A study of Sus scrofa with 36 samples.

Results

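Genes of the cell division cycle were followed in the liver of 36 castrated male growing pigs. The set held 44 genes in 3 classes by role: 29 genes of mitosis and cytokinesis, 11 genes of DNA replication and nucleotide supply, and 4 cyclins and kinases of the G1 phase. A gene was taken as measured when at least 1 array probe carrying its name, or its RefSeq accession or description, was scored well above background on 6 or more of the 36 arrays. By that rule 34 of the 44 genes were measured, against 10373 named genes on the array: 24 of the mitotic class, 7 of the replication class and 3 of the G1 class. CENPE had a probe that was not kept, and BUB1B, CCNA2, CCNE2, MAD2L1, MCM4, MCM5, MCM7, NDC80 and TYMS were not matched to a probe. Of the 71 probes for these genes 61 were kept, and 21 genes rest on 1 kept probe.

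The animals were Large White (LW), Creole (CR) or their F1 cross, with 12 of each, and came from 1 experimental farm in Guadeloupe. In every breed 6 were killed at thermoneutrality (TN, 24 °C) and 6 after heat stress (HS, given as 30 °C in the sample labels and as 32 °C for 5 days in the growth protocol). Each animal gave 1 liver sample. Because the HS animals were killed after the TN animals, the effects of temperature, of slaughter day and of age cannot be told apart. The labels give no litter, and litters supplied animals to both temperatures, so the error terms below treat littermates as independent and measure the spread between these 36 livers.

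Division is driven by cyclins that switch on cyclin-dependent kinases: D-type cyclins with CDK4 in G1, CDK2 at entry into S phase, and cyclin B with CDK1 at mitosis. DNA is copied from origins loaded with the MCM helicase, with PCNA as the sliding clamp and ribonucleotide reductase supplying the deoxynucleotides. Mitotic genes are transcribed as a group late in the cycle. Most hepatocytes of an adult liver are out of the cycle, but these pigs were still growing. Transcripts of dividing cells in bulk liver can come from hepatocytes or from any other cell type in the piece. In bulk RNA, fewer dividing cells and less RNA in each of them cannot be told apart.

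The arrays were of even quality. Between 39644 and 44025 spots per array were well above background. Hepatocyte transcripts such as ALB, APOA1 and HNF4A were well above background on all 36 arrays, and so were T cell, macrophage and endothelial transcripts such as CD3E, CD68 and PECAM1, so cells other than hepatocytes were present. The first principal component of the probes held 18.6% of the variance and separated LW from CR. LW TN 1 and 6 lay near the middle of it (-4.8 and -3.0), and F1 HS 1 and 2 and F1 TN 3 lay towards LW. Results that change without these 5 animals, called apart on the first component below, are given with and without them. Others were as far from their breed but were kept in that check. CR TN 2 also lay near the middle (2.3), and F1 livers lay on the CR side, among them F1 HS 4 (36.9), F1 HS 3 (33.5) and F1 TN 1 (28.3).

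The probes were 60 bases long. Those shown here carry the main comparisons or show where 2 probes of a gene agree or differ, and were taken from the array tables among probes with a reading frame free of stop codons. The kept probes of KIF23, TPX2 and CKS2 had a stop codon in every frame and are not printed. Capitals mark the 27 bases that 2 probes of AURKA share.
TOP2A (A_72_P298629): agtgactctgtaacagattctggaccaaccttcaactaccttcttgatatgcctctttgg
CDK1 (A_72_P440916): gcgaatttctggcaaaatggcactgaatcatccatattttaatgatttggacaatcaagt
CDC20 (O13165): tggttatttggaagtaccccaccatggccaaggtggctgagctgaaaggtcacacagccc
AURKA (A_72_P078066): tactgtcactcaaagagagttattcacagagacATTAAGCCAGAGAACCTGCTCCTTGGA
AURKA (A_72_P477497): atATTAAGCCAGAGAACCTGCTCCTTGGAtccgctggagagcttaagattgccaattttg
AURKB (A_72_P745159): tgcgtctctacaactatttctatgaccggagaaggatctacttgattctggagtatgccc
MCM3 (A_72_P055841): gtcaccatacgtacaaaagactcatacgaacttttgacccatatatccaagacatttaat
PCNA (A_72_P552916): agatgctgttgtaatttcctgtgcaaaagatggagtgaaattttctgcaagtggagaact

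The first question was whether the mitotic genes differed between temperatures over the 3 breeds. Levels are log2 signal, quantile-normalized. In a limma fit with breed and temperature, KIF23, TPX2, CKS2, TOP2A and CCNB1 fell under heat, and no cell cycle gene of the set rose. These 5 of 34 genes (5 of 24 in the mitotic class) passed an adjusted p of 0.05, where 1.42% of all 10373 genes passed and 0.819% passed downwards. At an unadjusted p of 0.05, 18 of the 24 mitotic genes were lower and 0 higher, against 7.81% of all genes lower. A negative difference at any p was found for 21 of the 24 and for 52.0% of all genes. The median difference of the 24 was -0.25 and that of all genes was -0.00361. CDC20, PRC1 and ANLN had been picked out by the study in liver from these animals and are not independent evidence. The 5 genes that passed are not among them but were read in the same livers. The set was chosen with earlier results of these data known, so they are not independent evidence either.

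TPX2, which activates AURKA and nucleates spindle microtubules, had the largest difference of the set. In the 18 TN livers it ranged from 8.07 to 9.44 with a median of 8.41, and in the 18 HS livers from 7.06 to 8.85 with a median of 7.78. The groups overlapped, but the HS median lay under the lowest TN liver. The difference was -0.64 ± 0.14 (SE, adjusted p = 0.0167), and 15 of 18 HS livers were below the TN mean of their breed.

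KIF23, a kinesin of the central spindle needed for cytokinesis, had the smallest p. It lay between 5.94 and 6.81 (median 6.26) in TN and between 5.51 and 6.33 (median 5.90) in HS, a difference of -0.38 ± 0.08 (SE, adjusted p = 0.0123). Again the HS median was below every TN liver, and 16 of 18 HS livers were below the TN mean of their breed.

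CKS2, a small subunit that binds CDK1, ranged from 8.13 to 9.40 (median 8.47) in TN and from 7.46 to 8.57 (median 8.24) in HS. Its difference of -0.46 ± 0.11 (SE, adjusted p = 0.0305) was shared by 17 of 18 HS livers. TOP2A, the topoisomerase that untangles replicated chromosomes, ranged from 7.42 to 8.39 (median 7.79) in TN and from 6.45 to 8.36 (median 7.30) in HS. Here the highest HS liver nearly reached the highest TN liver while most lay lower, and the difference was -0.52 ± 0.13 (SE, adjusted p = 0.0330). CCNB1, cyclin B1, ranged from 7.38 to 8.73 (median 7.86) in TN and from 6.30 to 8.45 (median 7.27) in HS, a difference of -0.54 ± 0.15 (SE, adjusted p = 0.0491) that passed in 9 of 36 fits without 1 animal.

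**Figure D1:**
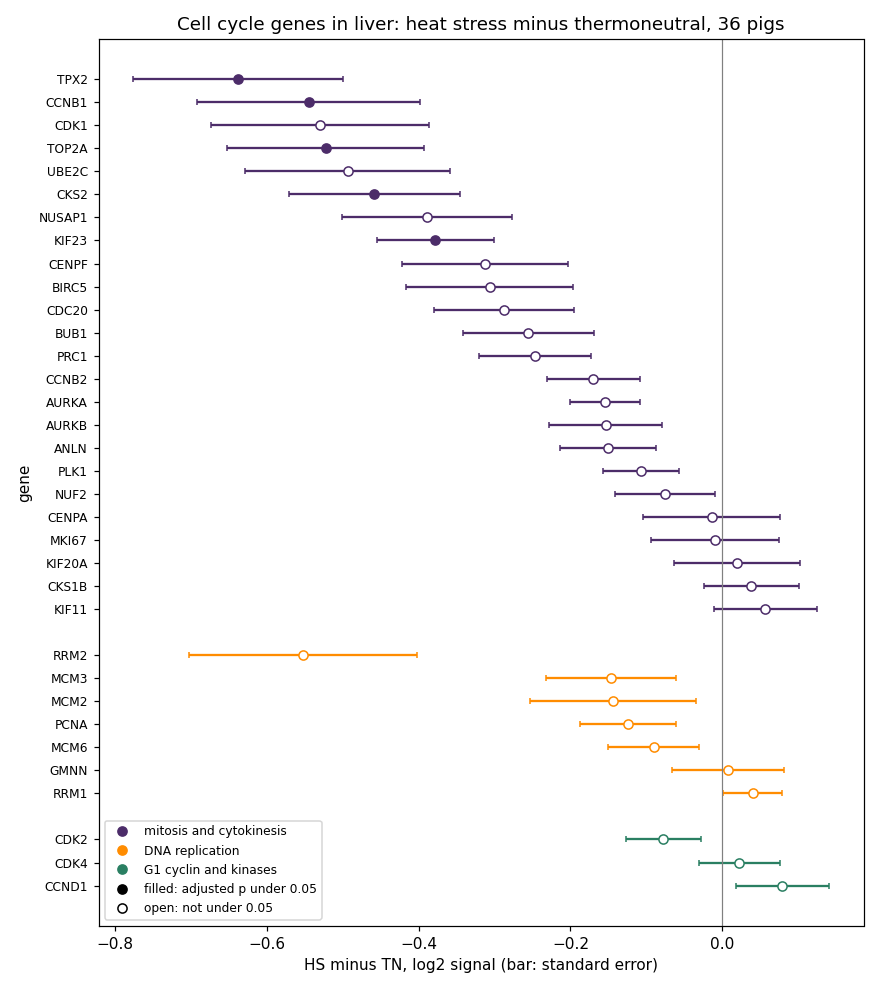
Difference between heat stress and thermoneutral livers (horizontal axis, log2 signal) for the 34 measured genes (vertical axis) by class; points are estimates over 36 animals, bars are standard errors, and filled points passed an adjusted p of 0.05. The 5 filled points are all mitotic genes to the left of zero, from -0.38 for KIF23 to -0.64 for TPX2, while the G1 genes lie near zero.

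The partners of these genes had differences of like size that did not pass. CDK1, the kinase that cyclin B activates, was at -0.53 ± 0.14 (SE, adjusted p = 0.0507). UBE2C, the E2 enzyme of the anaphase-promoting complex, was at -0.49 ± 0.14 (SE, adjusted p = 0.0518). NUSAP1, which bundles spindle microtubules, was at -0.39, and CDC20, the activator of the anaphase-promoting complex, at -0.29. Further genes lay lower at an unadjusted p under 0.05, among them the kinetochore and checkpoint genes CENPF (-0.31) and BUB1 (-0.26), the chromosomal passenger genes BIRC5 (-0.31) and AURKB (-0.15), and the cytokinesis genes PRC1 (-0.25) and ANLN (-0.15). CCNB2 (-0.17), AURKA (-0.15) and PLK1 (-0.11) completed the 18. The remaining 6 did not differ at that level: NUF2 (-0.08) of the kinetochore, the motors KIF11 (0.06) and KIF20A (0.02), CKS1B (0.04), the centromeric histone CENPA (-0.01) and the proliferation antigen MKI67 (-0.01). CKS1B, the paralogue of CKS2, was bright, and its 4 probes gave between -0.00065 and 0.06.

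In the replication class 0 of 7 genes passed and the median was -0.12. RRM2, the small subunit of ribonucleotide reductase that is made in dividing cells, was the exception in size. It ranged from 8.89 to 10.32 (median 9.32) in TN and from 7.81 to 10.06 (median 8.78) in HS, and its difference was -0.55 ± 0.15 (SE, adjusted p = 0.0507). RRM1, the large subunit of the same enzyme, was at 0.04 ± 0.04. Its only kept probe was dim, at mean levels of 5.37 in TN and 5.41 in HS. The RRM1 coding strand is the reverse complement of that probe. Its value therefore cannot be taken as RRM1 mRNA or set against RRM2, although RRM1 is counted among the 7 genes. PCNA ranged from 6.45 to 7.30 (median 6.80) in TN and from 6.30 to 7.18 (median 6.64) in HS, a difference of -0.12 ± 0.06 (SE, adjusted p = 0.366). MCM3 of the helicase ranged from 5.78 to 6.69 (median 6.20) in TN and from 5.40 to 6.41 (median 6.08) in HS, a difference of -0.15 ± 0.09 (SE, adjusted p = 0.450). Both groups overlapped over nearly their whole range for these 2 genes. MCM2 (-0.14) and MCM6 (-0.09), of the same helicase, and GMNN (0.01), which blocks relicensing of origins, did not pass either.

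The G1 genes lay near zero, with 0 of 3 called and a median of 0.02. CCND1, cyclin D1, was among the brightest spots of the array, from 14.77 to 15.39 (median 15.09) in TN and from 14.86 to 15.48 (median 15.12) in HS, a difference of 0.08 ± 0.06. CDK4 ranged from 9.25 to 9.73 (median 9.57) in TN and from 9.20 to 9.88 (median 9.57) in HS, and its difference was 0.02 ± 0.05. CDK2 ranged from 7.17 to 7.92 (median 7.44) in TN and from 7.11 to 7.52 (median 7.40) in HS, and its difference was -0.08 ± 0.05 (adjusted p = 0.502). TN and HS livers overlapped for all 3.

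Other genes of the same processes were read from lists kept apart from the 34, in the same livers and also chosen with earlier results known. Of all genes 0.819% fell, 1.42% passed in either direction and 52.0% had a negative sign. Of 38 further mitotic genes measured, 7 fell and 0 rose, 35 had a negative sign, and the median was -0.16. NCAPD2 of condensin fell by 0.28 on the log2 scale (SE 0.06, adjusted p = 0.0123). CDCA3 fell by 0.48 (SE 0.12, adjusted p = 0.0285) and SMC4, also of condensin, fell by 0.16 (SE 0.04, adjusted p = 0.0326). KNL1, KIF4A, PTTG1 and CCNF were the other 4. Of 29 further replication genes, 1 fell, RNASEH2A (-0.14 ± 0.03, SE, adjusted p = 0.0326), and 0 rose. A negative sign was seen for 13 and a positive one for 16, and the median was 0.0029. DBF4, the activator of the origin-firing kinase CDC7, was at 0.18 ± 0.05 (SE, adjusted p = 0.0546) and ORC4 of the origin recognition complex at 0.12 ± 0.04 (SE, adjusted p = 0.129). Of 25 G1 regulators and inhibitors 0 passed with limma after adjustment and 10 had an unadjusted p under 0.05 (14.4% of all genes did), 7 of them lower and 3 higher. The 3 smallest were GADD45A (-0.35 ± 0.10), CDKN1A (-0.31 ± 0.09) and LIN54 (-0.16 ± 0.05), with adjusted p of 0.0704, 0.0788 and 0.0824.

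Probe values show how far a gene mean can be trusted. Fitted probe by probe, 6 of the 61 probes passed, all lower, against 0.859% of all 44796 kept probes and 0.424% downwards. They belonged to KIF23, TPX2, CKS2, TOP2A, CDC20 and AURKA. The CDC20 probe that passed (O13165, -0.37 ± 0.08, SE, adjusted p = 0.0241) has the same 60 bases as another CDC20 probe that did not (A_72_P428644, -0.20 ± 0.12, SE, adjusted p = 0.510). Both are dim, at mean levels of 5.92 and 6.09, and their readings of 1 liver differed with an SD of 0.31. BIRC5 was brighter and also had 2 probes of 1 sequence, at 9.59 and 9.83, which differed with an SD of 0.064 and gave -0.33 and -0.35. AURKA has 3 probes: the called one had a TN mean of 7.73 and a difference of -0.32, while the 2 that share 27 bases had TN means of 5.34 and 5.83 and differences of -0.04 and -0.11. The 3 AURKB probes did not share a sign. The brightest was at 0.12 ± 0.06 and the others at -0.38 ± 0.12 and -0.20 ± 0.07, so the AURKB mean joins signals that moved apart. CDK1, KIF11, KIF20A, KIF23, NUF2, TPX2 and UBE2C each had 1 or more further probes that were not kept. For KIF11 the dropped probe was well above background on 0 arrays, so its value rests on 1 probe that the other does not back. With Agilent's processed signal scaled to the 75th percentile of each array, the median of the 24 mitotic genes was -0.46 instead of -0.25, and with a normexp background correction before quantile normalization it was -0.16.

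The livers differed widely within a group. Against the median of all 36 animals, CR TN 1 was higher for 24 of 24 mitotic genes and was the highest of all animals for 13. CR HS 1 was lowest for 10 and CR HS 5 for 7. Some heat-stressed livers lay high: CR HS 2 was above the median for 21 of 24 genes, F1 HS 4 and LW HS 3 for 20 and LW HS 5 for 19. Without F1 HS 4 the count of genes called was 11 in place of 5, without CR HS 2 or LW HS 3 to 10, without LW HS 5 to 9, and without LW TN 1 or LW TN 5 to 8. Without CR HS 1 or CR TN 6 it was 2, and without CR TN 5 it was 3. Adjustment runs over all genes, and the share of all genes that passed in each of these fits is not given. KIF23 and TPX2 passed whichever of the 36 animals was left out, while CKS2 did not pass without CR HS 1 or CR TN 6, nor TOP2A without CR HS 1, CR TN 5 or CR TN 6. The median of the mitotic genes stayed between -0.27 and -0.22.

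**Figure D2:**
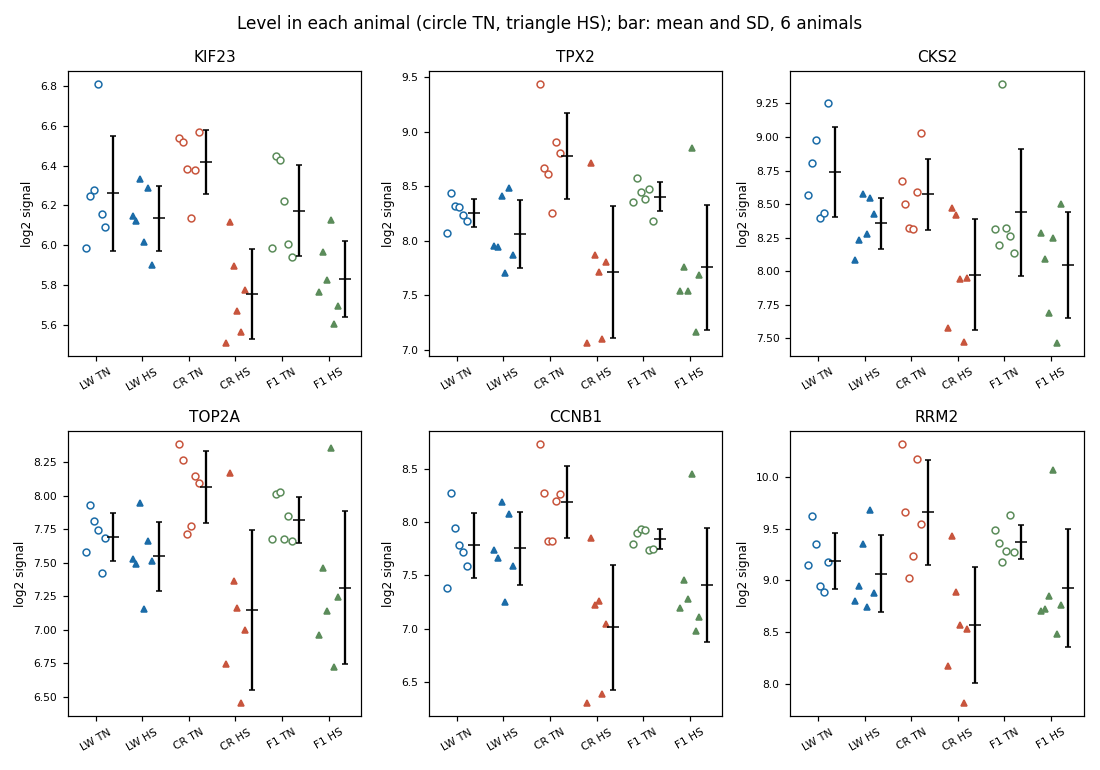
Log2 signal (vertical axis) in each of 36 livers by breed and temperature (horizontal axis) for the 5 genes called between temperatures and for RRM2; bars are the mean and SD of 6 animals. CR HS livers lie below CR TN livers for most animals, LW groups overlap, and 1 F1 HS liver stands above the other F1 HS livers for TPX2, TOP2A, CCNB1 and RRM2.

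After group means were removed, the mitotic genes still rose and fell together from liver to liver. Across the 36 animals the median Pearson correlation over their 276 pairs was 0.40, and 42.4% of the pairs were above 0.5. Over all pairs of measured genes the median was 0.0045 and 1.55% were above 0.5. Pairs within the replication class had a median of 0.27, and pairs of a mitotic with a replication gene 0.18. These pairs share arrays, RNA and, for several genes, dim signals, and are given as a description without a test. The counts above are therefore not counts of independent genes.

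**Figure D3:**
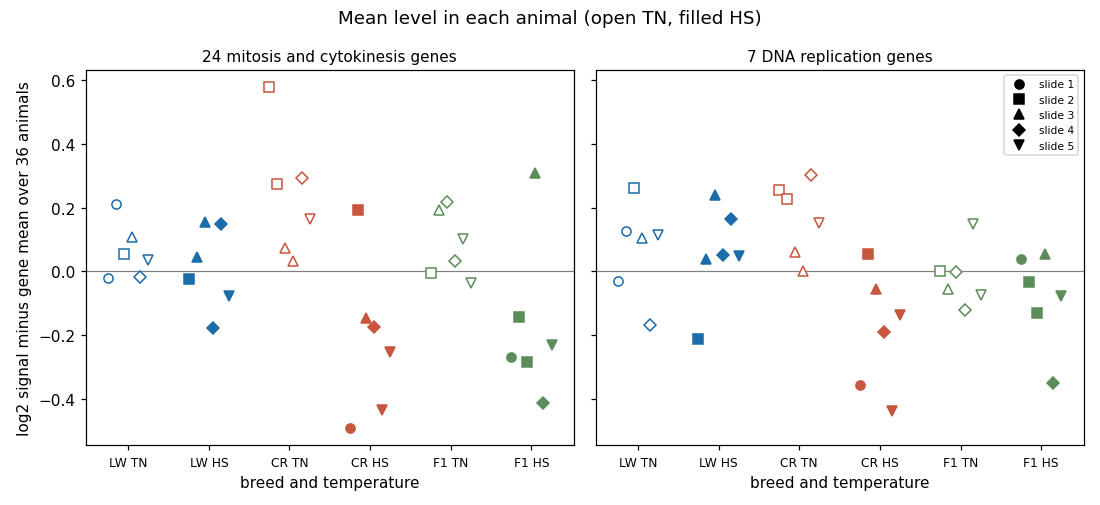
Mean of the 24 mitotic genes (left) and the 7 replication genes (right) in each liver, as log2 signal after each gene's mean over 36 animals was subtracted (vertical axis), by breed and temperature (horizontal axis); marker shapes give the slide. Mitotic levels of CR HS and F1 HS livers lie mostly below zero, from -0.49 to 0.19 and from -0.41 to 0.31, whereas CR TN livers lie between 0.03 and 0.58.

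The arrays were hybridised on 5 slides that each held both temperatures. Within slides 1, 2, 4 and 5 the median difference of the mitotic genes was -0.36, -0.27, -0.23 and -0.28, and on slide 3 it was 0.01. LW HS 3 and F1 HS 4 were on slide 3. For these values each breed's mean over all animals was subtracted first. No slide held the same breeds at both temperatures in equal numbers, so all 5 values still mix the temperature differences of the breeds unequally. Slide 1 had 2 LW TN livers against 1 CR HS and 1 F1 HS liver, and slide 3 had 2 CR TN and 1 LW TN against 1 CR HS and 2 LW HS. KIF23 was lower under heat on every slide, from -0.29 to -0.45, and TPX2 from -0.15 to -0.96. With slide as a fixed block 9 genes passed, and with slide as a random block 8. Without slide 3 the count was 10, without slide 1 it was 2, and without slide 2, 4 or 5 it was 0. The share of all genes that passed without each slide is not given either. The median of the mitotic genes remained between -0.31 and -0.22 in these 5 fits.

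The second question was whether the temperature difference was alike in the 3 breeds. The point estimates were not: the mitotic median was -0.04 in LW, -0.25 in F1 and -0.38 in CR. CR had a lower estimate than LW for 23 of 24 mitotic genes (52.9% of all genes did), and F1 lay between them for 21 (33.8% of all genes). The estimate was negative in all 3 breeds for 13 mitotic genes (18.6% of all genes). Within CR, 4 of 34 genes fell, KIF23 (-0.66 ± 0.12), CCNB1 (-1.17 ± 0.22), TPX2 (-1.07 ± 0.22) and RRM2 (-1.09 ± 0.24), with adjusted p of 0.0202, 0.0202, 0.0296 and 0.0477. In CR 0.174% of all genes passed and 0.154% passed downwards. Within F1 (0.0289% of all genes) and within LW (0%) no gene of the set passed. At an unadjusted p of 0.05, 23 genes of the 34 were lower in CR, 8 in F1 and 0 in LW, against 4.98%, 5.47% and 2.27% of all genes.

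CKS2 was at -0.38 ± 0.20 in LW (unadjusted p = 0.061), close to -0.39 ± 0.20 in F1, with -0.60 ± 0.20 in CR. TPX2 was at -0.20 in LW and CDC20 at -0.19. CCNB1 differed more between breeds. Its mean was 8.19 ± 0.34 in CR TN and 7.01 ± 0.58 in CR HS (SD, n = 6), 7.84 ± 0.09 in F1 TN and 7.41 ± 0.53 in F1 HS, and 7.78 ± 0.31 in LW TN and 7.75 ± 0.34 in LW HS. MCM2 ran the same way in CR, at 7.10 ± 0.33 in TN and 6.50 ± 0.38 in HS, and not in LW, at 6.86 ± 0.29 and 6.98 ± 0.28. The CR mean was above the LW mean at thermoneutrality for 20 of the 24 mitotic genes and below it under heat for 20 (47.7% and 54.2% of all genes).

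The test of the difference between breeds called no gene. None had an adjusted interaction p under 0.05 (0 of 10373 with limma, and 3.80% of genes at an unadjusted p of 0.05). Of the mitotic genes 12 of 24 had an unadjusted interaction p under 0.05, with CCNB1 at 0.0030 and KIF23 at 0.0122, as did 3 of 7 replication genes, with MCM2 at 0.0078. That count was 5 without CR TN 1, 6 without CR HS 1, LW HS 3 or LW HS 5, 7 without LW TN 1 or CR HS 5, 4 without the 5 animals apart on the first component, 2 with slide as a fixed block and 1 in the authors' normalized values. The genes called within CR, 4 in all livers, numbered 0 without CR TN 1, CR TN 2, CR HS 1 or CR HS 5 and 2 without CR TN 5, CR TN 6, CR HS 4 or CR HS 6. They numbered 12 without CR HS 2, 9 without F1 HS 4 and 8 without CR TN 4. The shares of all genes in these fits are again not given.

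**Figure D4:**
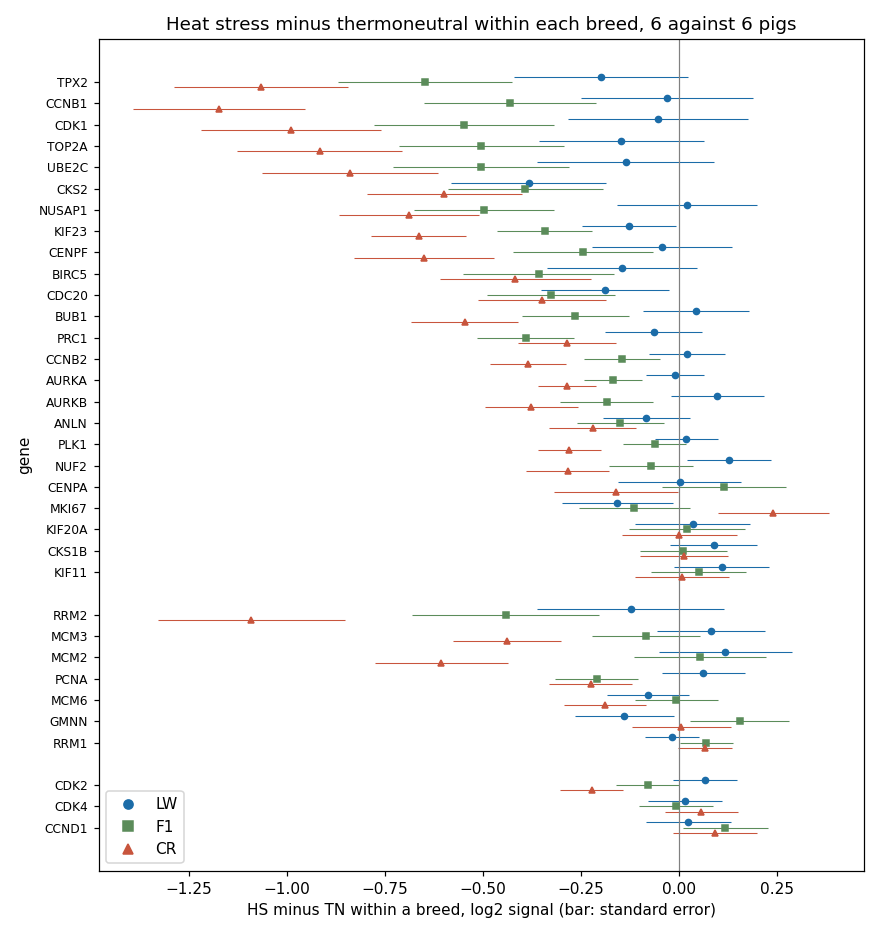
Difference between heat stress and thermoneutral livers within LW, F1 and CR (horizontal axis, log2 signal, 6 against 6 animals) for the 34 genes (vertical axis), with standard errors. Creole estimates lie farthest left for most mitotic genes, down to -1.17 for CCNB1, and Large White estimates lie between -0.20 and 0.13 except for CKS2 at -0.38.

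Markers of other cells were read beside these differences, and their part in them was not tested. Between temperatures 0 of 13 lymphocyte, 0 of 10 macrophage, 0 of 9 endothelial, 0 of 9 stellate cell, 0 of 8 bile duct and 0 of 8 hepatocyte markers passed, with medians of -0.05, -0.05, -0.03, 0.01, 0.08 and 0.05. The mean level of the lymphocyte list ranged from 6.30 to 7.10 in TN and from 6.36 to 6.89 in HS, and that of the macrophage list from 10.09 to 11.03 and from 9.95 to 10.91. Within CR, where the mitotic estimates were lowest, 9 of 10 macrophage markers had a negative sign (median -0.15) and 8 of 9 endothelial (-0.10). So did 6 of 9 stellate cell markers (-0.21) and 6 of 13 lymphocyte markers (0.0045). Of all genes, 5570 of 10373 were negative within CR (median -0.0096). Bile duct markers were negative there for 4 of 8 (0.0082) and hepatocyte markers for 2 of 8 (0.030). Within LW the medians of the macrophage, endothelial, stellate cell and lymphocyte lists were 0.018, 0.022, 0.041 and -0.10. Within F1 they were -0.03, -0.015, 0.20 and -0.05. With limma 0 of these markers passed within a breed. Within CR 1 lymphocyte marker and 0 macrophage, endothelial, stellate cell, bile duct or hepatocyte markers had an unadjusted p under 0.05. Of 7 erythroid markers 1 fell over the 3 breeds, EPB42 (-0.22 ± 0.05, SE, adjusted p = 0.0263), with a list median of 0.00 and a mean level from 7.29 to 8.22 in TN and from 7.14 to 8.30 in HS.

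The last question was whether basal levels of the genes differed between breeds over both temperatures. Between CR and LW 26.6% of all genes passed, 15.5% lower and 11.1% higher in CR, and 5 of 34 cell cycle genes did, 3 lower and 2 higher. PCNA was lower in CR, at a median of 6.64 (6.39 to 6.88, 12 animals) against 6.92 (6.61 to 7.30) in LW, a difference of -0.28 ± 0.08 (SE, adjusted p = 0.00668). CENPA was lower, at 5.32 (4.88 to 5.79) against 5.77 (5.26 to 6.04), and CKS1B was lower, at 9.89 (9.61 to 10.24) against 10.08 (9.85 to 10.31). Their differences were -0.36 ± 0.11 and -0.21 ± 0.08 (SE), with adjusted p of 0.0152 and 0.0400, and that of CKS1B did not pass in 11 of 36 fits without 1 animal. The breeds overlapped for all 3 genes. CENPA rests on 1 dim probe. That probe was well above background in 4 CR TN, 2 CR HS, 6 LW TN and 4 LW HS livers, of 6 in each group.

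KIF20A, a kinesin of cytokinesis, was higher in CR, at a median of 7.50 (7.15 to 7.72) against 7.15 (6.89 to 7.30), a difference of 0.35 ± 0.10 (SE, adjusted p = 0.00929). CDC20 was higher, at 6.15 (5.50 to 6.92) against 5.88 (5.51 to 6.09), a difference of 0.35 ± 0.11 (SE, adjusted p = 0.0205). F1 livers spread over both parents' ranges for KIF20A, from 6.76 to 7.74 with an SD of 0.37 in HS and 0.43 in TN, against 0.08 and 0.16 in LW. Its value rests on 1 kept probe named through the description, with both probes named KIF20A near background.

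**Figure D5:**
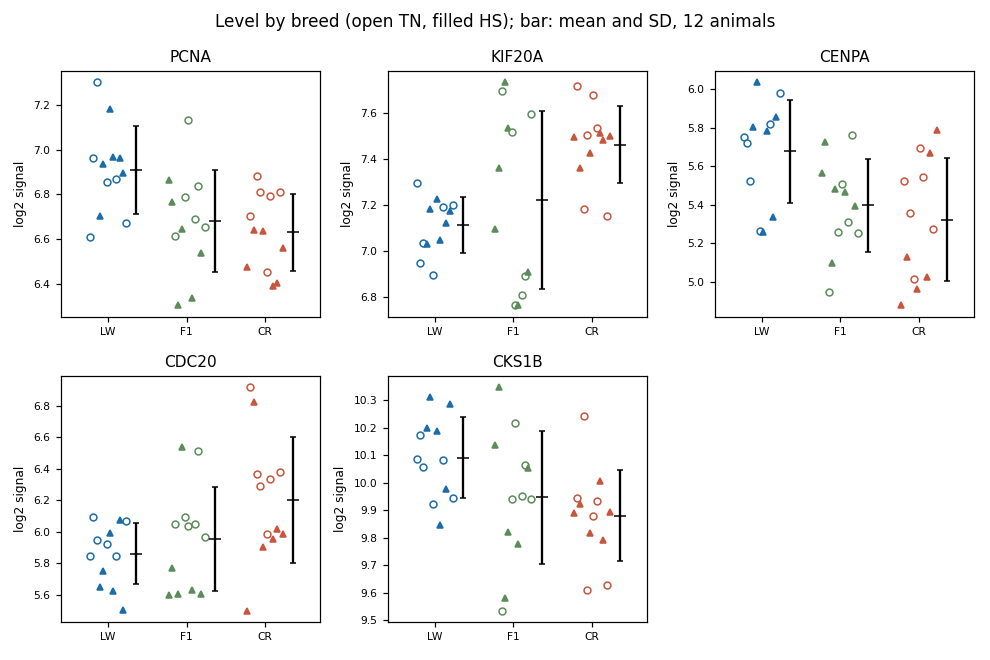
Log2 signal (vertical axis) of the 5 genes that differed between CR and LW, in each liver by breed (horizontal axis); open points are TN, filled points HS, and bars are the mean and SD of 12 animals. PCNA, CENPA and CKS1B lie lower in CR than in LW, KIF20A and CDC20 lie higher, and F1 livers of KIF20A fall into a low and a high set.

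Of the 5, only PCNA also differed between F1 and LW (-0.23 ± 0.08, SE, adjusted p = 0.0375), where 17.0% of all genes passed, and 1 of the 34 passed. PCNA did not pass with slide as a fixed block, in the authors' table or with the processed signal (adjusted p of 0.05003, 0.0858 and 0.103 with limma), nor without slide 2, 3, 4 or 5. It did not pass in 13 of 36 fits without 1 animal, which were those without LW TN 3, LW HS 2 to 6, F1 TN 1, 4 or 6, or F1 HS 3 to 6. The count of 1 was 8 without the 5 animals apart on the first component. Between F1 and CR (1.86% of all genes) and between F1 and the mean of both parents (1.14%) 0 of 34 passed with limma, and 3 of 34 had an unadjusted p under 0.05 in each, against 13.6% and 14.9% of all genes. The smallest unadjusted p were 0.0165 for RRM1 (-0.12 ± 0.05) and 0.0361 for MCM2 (-0.25 ± 0.12). That of RRM1 comes from its dim probe of the opposite strand and cannot be taken as RRM1 mRNA. These 4 breed contrasts share animals. Markers of other cells moved with breed: between CR and LW 7 of 10 macrophage, 7 of 9 endothelial and 8 of 13 lymphocyte markers were called, all lower in CR. Their part in the breed differences of PCNA, CENPA and CKS1B was not tested.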

How the data were processed

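Liver RNA of 36 pigs was hybridised to 1-colour Agilent arrays. The deposited spot intensity (median signal) was extracted by the authors from scanned images with Agilent Feature Extraction 10.10.1.1. The authors' deposited table holds log2 values centred per probe (column medians 7.656 to 7.659). Its level is unknown, so it was used for differences only, as an alternative.

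Intensities of 60306 non-control spots were log2-transformed and quantile-normalized, 107 flagged spots were set missing, and probes well above background on at least 6 arrays were kept. A gene is the mean of its kept probes. Probes that disagree are described above for CDC20, AURKA and AURKB, not for every gene. In limma fits per probe, A_72_P454369 of CDK2 passed for CR minus LW (0.27, adjusted p = 0.0046) and F1 minus LW (0.23, adjusted p = 0.0235). Another CDK2 probe, A_72_P673069, was at -0.14 for F1 minus LW, and the CDK2 mean was not called. TOP2A probes were at 0.23 and -0.26 for CR minus LW. CCNB2 probes were at -0.27 ± 0.08 and -0.06 ± 0.05 (SE) for HS minus TN. Models were fitted with limma 3.58.1 in R 4.3.3 over all 10373 genes (lmFit and eBayes, Benjamini-Hochberg, 0.05). Breed and temperature were additive terms. Differences within breeds and the interaction came from a model of 6 groups. The study's model also had pen, day and parents, which the labels do not give. The number of arrays limits the precision.

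The 44 genes and all lists were chosen with earlier results of these data known. All measured genes of the set are named. Values over 18 TN and 18 HS livers are given for genes called between temperatures and for the 3 of smallest p in each class, and of each further list the 3 of smallest p are described. For breed contrasts the 4 called genes of smallest p are named. CKS1B, also called, was named after its values were seen. The calculation was tested on simulated data. Alternatives were other signals, background corrections, scalings, filters, probe choices, slide blocks, array weights, and leaving out each animal or slide. Leaving out 5 animals together and the count of unadjusted interaction p were added after seeing the data. Probes carrying a name of the set but another gene's accession (2) were left out.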

Additional observations from a re-analysis of the deposited data

Results flagged for a closer look

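Within groups of 6 livers, 8 of 108 value sets checked had 1 liver whose gap to the nearest other, over the group's range, exceeded Dixon's critical value. Chance gives about 1 in 20 such sets. F1 HS 4 stood above the other F1 HS livers in 5 of them. Its mean over the mitotic genes was 7.31 (nearest liver 6.86), with TPX2 at 8.85 (7.76), CCNB1 at 8.45 (7.45), RRM2 at 10.06 (8.85) and CDC20 at 6.54 (5.77). CDC20 also had a high F1 TN liver, replicate 5, at 6.51 (6.09). KIF23 was high in LW TN 4, at 6.81 (6.28), and CKS2 in F1 TN 3, at 9.40 (8.32). F1 TN 3 is among the 5 animals apart on the first component.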

How the results depend on the processing

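No paired analysis was possible because the labels give no litter. The median difference of the 24 mitotic genes between temperatures was negative in all fits, -0.46 with the processed signal, -0.16 with normexp background, and between -0.27 and -0.22 with 1 animal left out. Genes called, 5 in the main setting, numbered 2 with median centring, 3 with probes named by GeneName alone, 8 with probes well above background on 18 arrays or slide as a random block, and 9 with detection on all arrays, slide as a fixed block or the authors' table. They numbered 2, 0, 10, 0 and 0 without slides 1 to 5, and from 2 to 11 without 1 animal. Probes called, 6 in the main setting, numbered 3 with median centring, no filter, array weights, no breed term or without the 5 animals, then 1, 0, 11, 0 and 0 without slides 1 to 5, and from 3 to 14 without 1 animal. KIF23 and TPX2 were called in all 36 fits without 1 animal and in all 15 other settings, but in 2 of 5 fits without a slide. CCNB1 was called in 9 of 36, 7 of 15 and 1 of 5. Further mitotic genes called, 7 in the main setting, numbered 2 with median centring, 4 by GeneName alone or without the 5 animals, and 1, 0, 10, 0 and 0 without slides 1 to 5.

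Within CR, 4 in the main setting became 2 in the authors' table or without the 5 animals, 1 with no filter or slide as a fixed block, and 7 with detection on all arrays. Without slides 1, 3, 4 and 5 they were 0, 7, 0 and 0, and from 0 to 12 without 1 animal. Mitotic genes with an unadjusted interaction p under 0.05 numbered 1 in the authors' table, 2 with slide as a fixed block, 4 without the 5 animals, 5, 3 and 4 without slides 1, 4 and 5, and from 5 to 14 without 1 animal. Between CR and LW, 5 became 3 by GeneName alone or without slide 1 or 4, and 2 without slide 3. Between F1 and LW, 1 became 0 with the processed signal, the authors' table, slide as a fixed block or without slide 2, 3, 4 or 5, 7 with array weights and 8 without the 5 animals, and from 0 to 3 without 1 animal. Against the mean of both parents, 3 genes passed without the 5 animals. The cause of these shifts was not tested. Fits without an animal or slide hold fewer samples. How many of all genes passed in each alternative fit is not given, so shifts in these counts cannot be read as particular to these genes.

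Signs turned only for differences near zero and for AURKB, whose brightest probe gave 0.12. CDK4 was at -0.0057 without the 5 animals. CENPA was at 0.012 and 0.045 without slides 1 and 4 and from -0.043 to 0.013 without 1 animal. GMNN was at -0.034 with the processed signal, -0.0026 with array weights, -0.023 without slide 2, and from -0.022 to 0.040 without 1 animal. KIF11 was at -0.036 with no filter. KIF20A was at -0.0013 in the authors' table, -0.027 with array weights, -0.0037 without slide 4, and from -0.012 to 0.049 without 1 animal. MKI67 was at 0.0037 with normexp background, 0.0073 and 0.015 without slides 3 and 4, and from -0.083 to 0.015 without 1 animal. Dim probes limit ANLN, CCNB2, CENPA, MCM3, PLK1, PRC1 and RRM1, for which no kept probe was well above background on every array, and 1 or more kept probes of AURKA, AURKB, CDC20, CDK2, CENPF and NUF2.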

Other observations

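KIF20A values of the 12 F1 livers lay in 2 ranges, 6 livers at 7.10 or below and 6 at 7.36 or above, and each range held livers of both temperatures. The highest LW liver was at 7.30 and the lowest CR liver at 7.15. MKI67 had 1 HS liver at 7.03, where the highest TN liver was at 6.05.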
